A study of Mus musculus with 6 samples.

Results

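The data are 4 microarrays of mouse embryonic stem (ES) cells that lack Dppa2 and carry either an empty vector or a vector that returns Flag-tagged Dppa2. They are 4 of the 6 arrays of the series and were chosen by their titles, as 2 mock arrays and 2 Flag-Dppa2 arrays. The 4 arrays come from 2 knockout lines, each measured once with each vector. Both lines were established from blastocysts of mice that were heterozygous at ECAT15-1 and ECAT15-2, line 1 from mother 1046 and line 2 from mother 875. ECAT15-2 is an older name of Dppa2 and ECAT15-1 of Dppa4. All 4 knockout arrays have the genotype 15-1CT/CT, 15-2-/-, where CT is a conditional targeted allele of ECAT15-1, so the control arrays carry it as well. Mock cells received piggyBac-CAG-IP and Flag-Dppa2 cells received piggyBac-CAG-Flag15-2-IP, a transposon vector in which the strong general CAG promoter drives the tagged gene in place of Dppa2's own promoter. The remaining 2 arrays are untransduced wild-type ES cells (15-1+/+, 15-2+/+), 1 from each mother, whose levels stand here only for reference. All cells grew for 3 days on gelatin without a feeder layer being named, in medium with 15% FCS and LIF, and their strain background is a mixture of 129Sv, C57/BL6 and Cre or FLPe mice of unstated background. Each group has 1 array per line, and whether the transduced cells were a clone or a pool is not given in the sources used here.

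Dppa2 is a small nuclear protein with a SAP domain, found in early embryos, ES cells and germ cells, where it works together with the related protein Dppa4. The pair binds chromatin and is known for keeping the promoters of a group of developmental and germ cell genes free of DNA methylation and carrying active histone marks. Genes of this kind can stay silent once their promoters are methylated, so returning the protein to a knockout line asks which of them are expressed again.

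Each array held 45018 spots, labelled with Cy3 only, and none was saturated on any array. Between 56.6% and 60.3% of probes were well above background on the 4 knockout arrays, whose 75th percentiles ran from 715 to 801 intensity units. A level below means the log2 signal minus the log2 of its own array's 75th percentile, so 0 is that percentile. Both mock arrays were on one slide and scan together with the wild-type arrays, and both Flag-Dppa2 arrays were on another slide and scan, so slide and vector cannot be told apart. The 8 spike-in controls that lay above background on all 4 arrays, RNAs added in known amounts, were lower with Flag-Dppa2 by 0.04 to 0.25 on the log2 scale in line 1 and by 0.01 to 0.24 in line 2. The 8 ES cell markers on the arrays were above background on all 4. The log2 of their summed signal was 9.26 and 9.42 in mock and 9.23 and 9.40 with Flag-Dppa2 (line 1, line 2). That sum is mostly Dppa5a, at 8.87 and 8.95 in mock, and says little of the others. Of the 8, Pou5f1 was higher in both lines. Esrrb, Klf4, Tdgf1 and Utf1 were lower in both, by differing amounts, and Sox2 in line 1 alone. Dppa5a and Zfp42 hardly differed, by -0.02 and -0.003 for Dppa5a and -0.02 and -0.04 for Zfp42 in lines 1 and 2. Nanog has no probe named here.

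Dppa2 itself was read first, because it checks the labels. Its probe stood at -2.09 and -2.0 in the mock arrays of lines 1 and 2, at -0.05 and 0.35 with Flag-Dppa2, and at a mean of 2.10 in wild type. The Flag-Dppa2 arrays were both above the mock arrays, and both below the wild-type level. The probe was above background on both mock arrays too, although these cells lack Dppa2. The source of that signal was not tested, and it limits both the check and the fold. The within-line differences were 2.04 and 2.36, a mean of 2.20 (SE 0.13, n = 2 lines), or 4.59-fold. Dppa2 was called higher with a limma adjusted p of 0.0124. Every SE given here is limma's moderated SE, which is drawn toward the spread of other genes. It can be smaller or larger than the 2 line differences alone would give. The sources used here do not give where the probe lies relative to the deletion or the inserted coding sequence. Dppa4, the partner gene, stood at 3.47 and 3.67 in mock, 3.60 and 3.78 with Flag-Dppa2 and 2.98 in wild type. Its difference of 0.12 (SE 0.06, n = 2 lines) had a limma adjusted p of 0.298 and was not called.

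Across all genes, many more were higher than lower with Flag-Dppa2. A gene was tested where 2 or more of the 4 arrays read it above background. Of 12977 such genes with a name, 512 were called higher with Flag-Dppa2 (3.95%) and 209 were called lower (1.61%), where called means a Benjamini-Hochberg adjusted p below 0.05 in limma with the line as a block. The median called difference was 1.51 for the higher genes and -0.70 for the lower genes on the log2 scale. Of the called genes, 386 were at least 2-fold higher and 39 at least 2-fold lower, and 186 and 6 passed 4-fold. Counted without a test, 492 genes (3.79%) were at least 2-fold higher in both lines and 56 (0.432%) at least 2-fold lower in both, with the brighter group above background on both of its arrays and the dimmer signal taken as measured. With signals below background raised to the lowest signal above it, the counts were 423 and 31. They were 179 and 8 with another background correction (normexp), and 245 and 22 with only genes above background on all 4 arrays kept. Of the called genes, 333 higher and 27 lower ones were also at least 2-fold apart in both lines with signals as measured.

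The differences in the 2 lines were correlated. Over the 12977 genes the difference in line 1 and that in line 2 had a Pearson correlation of 0.66 and a Spearman correlation of 0.60, given as a description, since genes are not independent and all 4 arrays enter it. The median difference was -0.01 in line 1 and 0.02 in line 2. In 33 genes the signals, those below background included, differed by at least 2-fold in opposite directions in the lines. For 619 of the 721 called genes (5.56% of those tested), both Flag-Dppa2 arrays lay on the same side of both mock arrays. The groups also did not overlap in 37.5% of all genes tested.

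**Figure D1:**
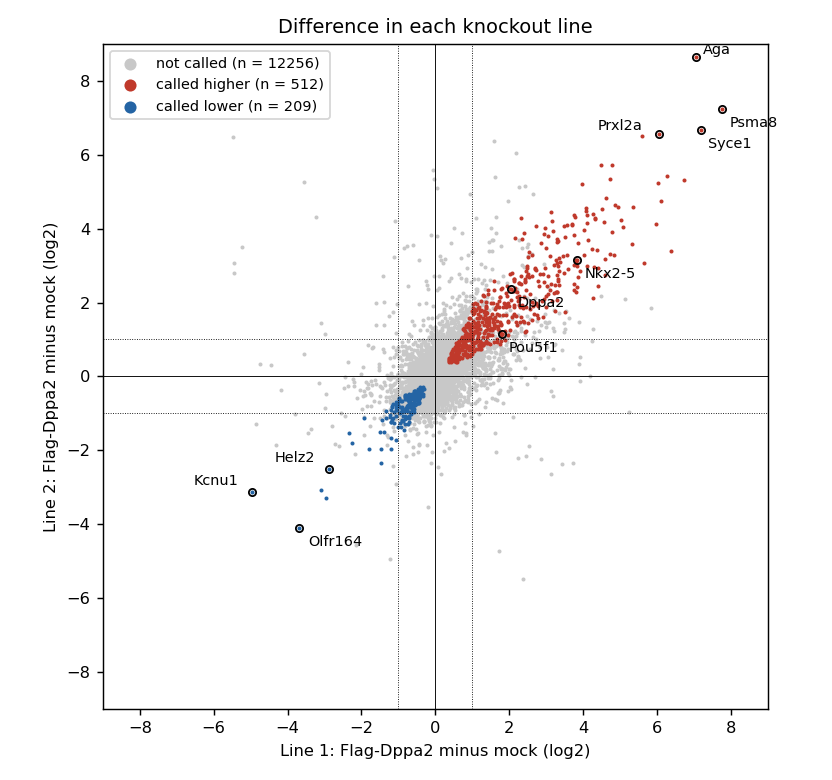
Each point is 1 of the 12977 genes, with the Flag-Dppa2 minus mock difference (log2) in line 1 on the x axis and in line 2 on the y axis, coloured by the limma call, with dotted lines at 2-fold. The 512 genes called higher reach above 7 in both lines, and 39 of the 209 called lower are at least 2-fold from 0.

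The calls rest on few arrays. With 2 lines the fit has 1 residual degree of freedom, and limma fills in the rest from the spread of other genes of like intensity. Without that intensity trend no gene was called in limma, with 1603 higher and 1018 lower genes at an unadjusted p below 0.05, and without the line as a block none was called either, with 704 and 364. A fit over all 6 arrays without the block or the trend called 116 genes higher and 4 lower, of which 97 and 4 were among the calls above. In the main fit, p-values therefore rest on how far the 2 within-line differences disagree, and not on the spread between lines. They rest more on the spread borrowed from other genes, with a median of 3.61 prior degrees of freedom. Each line gave 1 RNA per vector.

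The 20 genes with the widest gap, ranked by the smaller of the within-line differences, were all called higher, with limma adjusted p-values from 0.00325 to 0.0219. For 17 of them neither mock array was above background, so their fold is given as a lower bound, computed against the lowest signal that counted as above background. Psma8, a subunit of the germ cell form of the proteasome, stood at -6.17 and -5.92 in mock and at 1.60 and 1.32 with Flag-Dppa2, with 1.98 in wild type. It was at least 113-fold higher. Aga, a lysosomal enzyme that trims glycoproteins, went from -6.92 and -7.87 in mock to 0.13 and 0.77, at least 55.9-fold higher, with -0.31 in wild type. Syce1, which builds the central element of the synaptonemal complex, went from -7.26 and -7.88 to -0.06 and -1.20 and was at least 26.4-fold higher, with 0.93 in wild type. The genes were ranked by this gap, so its width is no separate evidence. The spread of mock signals below background is not measured.

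Prxl2a and 1700029P11Rik were measured above background on all 4 arrays, so their folds are measured rather than bounded. Prxl2a, a peroxiredoxin-like redox protein, stood at -3.54 and -4.36 in mock and at 2.53 and 2.21 with Flag-Dppa2, a difference of 6.32 (SE 0.16, n = 2 lines) or 79.9-fold. The uncharacterised gene 1700029P11Rik stood at -2.77 and -2.65 in mock and at 1.54 and 1.63 with Flag-Dppa2, a difference of 4.29 (SE 0.10) or 19.6-fold. Of the rest, Gstm5, a glutathione transferase, had its mock array of line 1 below background. It was at least 4.53 higher in line 1 and 4.59 higher in line 2 on the log2 scale.

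Several of the other genes are enzymes. Ctsh, the lysosomal protease cathepsin H, was at least 24.1-fold higher; Upb1, the last enzyme of pyrimidine breakdown, at least 11.1-fold; Car4, a membrane-bound carbonic anhydrase, at least 10.8-fold; Hsd17b1, which makes oestradiol, at least 10.4-fold; Smpdl3a, a phosphodiesterase, at least 5.85-fold; and Gatm, which starts creatine synthesis, at least 4.25-fold. Gsdme, a pore-forming gasdermin, was at least 9.98-fold higher and Hmgn3, a nucleosome-binding protein, at least 13.1-fold. Genes active in germ cells also stand among them: Ccnb1ip1, which works in meiotic crossover formation, was at least 9.67-fold higher, Mageb4 on the X chromosome at least 7.70-fold, and Rhox13, a homeobox gene of the same chromosome, at least 8.90-fold. Fam149a was at least 21.5-fold, 3830406C13Rik at least 5.81-fold and Cnrip1 at least 4.84-fold higher.

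**Figure D2:**
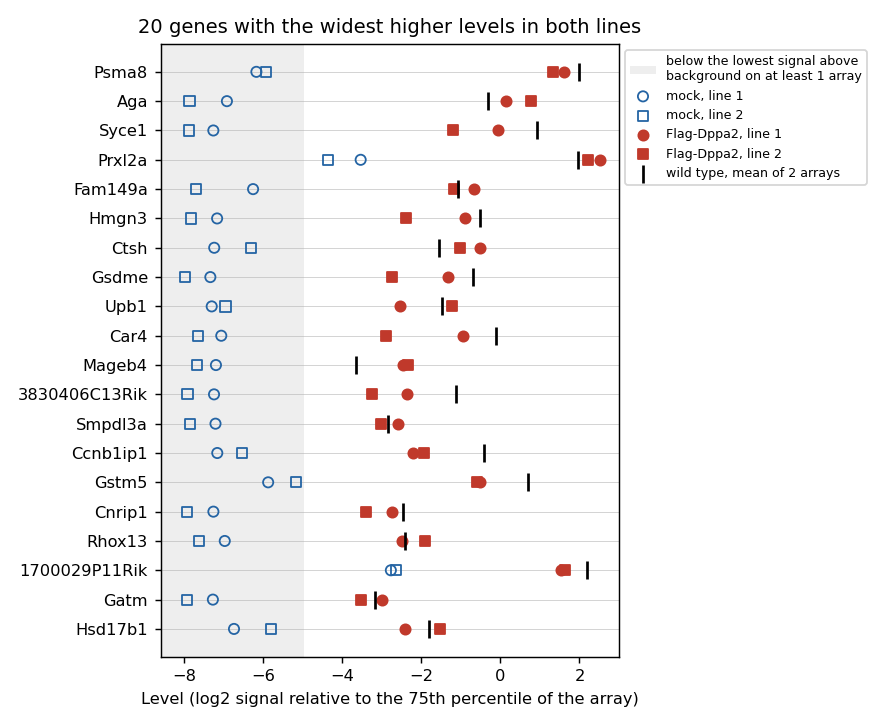
Level on each array (x axis, log2 relative to the array's 75th percentile) of the 20 genes with the widest higher level with Flag-Dppa2 in both lines, with circles for line 1, squares for line 2, and a bar for the wild-type mean. In every gene both filled Flag-Dppa2 symbols lie right of both open mock symbols, and most mock symbols lie in the grey zone, where at least 1 array gives no signal well above background.

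Many genes read above background only with Flag-Dppa2. Across all genes, 162 were above background on both Flag-Dppa2 arrays and on neither mock array, and 84 of them were called higher. The reverse was seen in 75 genes, of which 5 were called lower. Of all 12977 genes tested, 3.95% were called higher and 1.61% lower. Both kinds were picked by which group read above background, and passed the filter through that group alone. Their calls in that direction therefore follow in part from the selection, and these counts are no separate evidence. Nkx2-5, a cardiac homeobox gene, is of the first kind: it stood at -5.74 and -6.37 in mock and at -1.91 and -3.23 with Flag-Dppa2, with -2.85 in wild type. It was at least 6.90-fold higher (limma adjusted p 0.0219).

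The promoters of these genes are shown for 5 of them, because Dppa2 is known to act at promoters. Each run of 300 bases reads from 250 bases before to 50 after the RefSeq start (build GRCm38.p6), and CpG pairs, the sites where DNA can be methylated, are in capitals. The sites are Syce1 at chr7:140787805-140788104, minus strand; Nkx2-5 at chr17:26841516-26841815, minus strand; Car4 at chr11:84957504-84957803, plus strand; Upb1 at chr10:75406661-75406960, plus strand; Mael, a germ granule gene described below, at chr1:166238695-166238994, minus strand.
Syce1: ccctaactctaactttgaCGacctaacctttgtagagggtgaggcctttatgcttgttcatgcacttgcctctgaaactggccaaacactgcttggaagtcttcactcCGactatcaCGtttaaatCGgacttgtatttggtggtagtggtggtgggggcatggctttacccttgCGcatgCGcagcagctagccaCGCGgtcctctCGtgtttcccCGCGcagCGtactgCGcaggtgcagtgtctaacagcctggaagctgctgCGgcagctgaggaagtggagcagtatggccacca
Nkx2-5: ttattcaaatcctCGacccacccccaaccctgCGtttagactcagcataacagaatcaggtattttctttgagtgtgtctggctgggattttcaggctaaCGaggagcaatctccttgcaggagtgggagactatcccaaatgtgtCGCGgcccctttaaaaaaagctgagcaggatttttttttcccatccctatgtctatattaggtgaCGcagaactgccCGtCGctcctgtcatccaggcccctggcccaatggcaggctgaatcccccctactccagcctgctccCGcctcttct
Car4: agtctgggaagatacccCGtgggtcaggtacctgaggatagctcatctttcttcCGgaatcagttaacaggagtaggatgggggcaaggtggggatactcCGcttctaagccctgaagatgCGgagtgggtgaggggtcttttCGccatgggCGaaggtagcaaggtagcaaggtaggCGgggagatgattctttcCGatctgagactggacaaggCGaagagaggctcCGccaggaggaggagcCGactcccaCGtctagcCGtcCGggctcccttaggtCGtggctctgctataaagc
Upb1: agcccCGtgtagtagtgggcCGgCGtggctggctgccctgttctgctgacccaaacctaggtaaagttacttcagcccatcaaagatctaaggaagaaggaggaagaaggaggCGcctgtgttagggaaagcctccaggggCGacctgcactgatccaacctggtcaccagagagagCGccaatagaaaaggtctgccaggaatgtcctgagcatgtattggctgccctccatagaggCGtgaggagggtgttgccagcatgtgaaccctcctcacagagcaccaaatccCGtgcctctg
Mael: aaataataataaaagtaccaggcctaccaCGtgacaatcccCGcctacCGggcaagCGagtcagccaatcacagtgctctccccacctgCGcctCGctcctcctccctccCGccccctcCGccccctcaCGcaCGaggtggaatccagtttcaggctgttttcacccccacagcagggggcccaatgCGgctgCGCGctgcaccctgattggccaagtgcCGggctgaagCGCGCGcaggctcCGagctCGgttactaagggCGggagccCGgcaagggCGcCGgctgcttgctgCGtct

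These 5 windows held 14, 9, 15, 8 and 24 CpG pairs in that order. A promoter was matched by symbol for 10368 of the 12977 tested genes, whose median was 20 CpG pairs, and 81.5% of them held at least 10. The 400 called-higher genes with a promoter had a median of 15 and 68.3% held at least 10. For the 69 that were called higher and above background only with Flag-Dppa2, the median was 10.5 and the share with at least 10 was 53.6%. The 167 called-lower genes had a median of 16.5, between these values and that of all genes. Observed over expected CpG, which corrects for base composition, was 0.744 in all tested genes, 0.585 in the called-higher genes and 0.491 in those on only with Flag-Dppa2. These are descriptions of the sequence, with no test. The promoters were also searched on both strands for the E-box CACGTG, for TCCCGC, a motif of E2F-type factors, and for the GC box GGGCGG. Among the tested genes 11.7%, 39.2% and 68.0% held them, against 14.5%, 23.2% and 47.8% of the 69. The 400 called-higher genes lay close to all tested genes, at 13.8%, 37.8% and 66.3%. The 3 germ cell lists described below gave 9 called-higher genes with a promoter. Their median was 24 CpG pairs, and 44.4%, 55.6% and 55.6% held the motifs. A match is a description of the letters, not a binding site. The 69 were below background in mock by definition, while 11962 of the 12977 tested genes were above background on all 4 arrays. No other set of dim genes was compared, and the part of low signal in these CpG and motif shares was not tested.

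Germ cell genes were spread over 3 lists. Of the synaptonemal complex and meiotic recombination list, 26 genes were on the arrays and 18 passed the filter, and 4 were called higher and none lower, against 3.95% and 1.61% of all genes; the list's median difference was 0.21. Mei1, a meiotic recombination gene, stood at -6.67 and -5.91 in mock and -3.20 and -3.12 with Flag-Dppa2, at least 4.57-fold higher. Hormad1, which coats unsynapsed chromosome axes, stood at -5.14 and -5.03 in mock and -2.82 and -2.52 with Flag-Dppa2. Its mock array of line 1 was below background. It was at least 2.22 apart in line 1 and 2.51 in line 2 (limma adjusted p 0.0246). Meioc, which keeps cells in meiotic prophase, stood at -2.75 and -3.20 in mock and -1.42 and -1.44 with Flag-Dppa2, a difference of 1.54 (SE 0.17). Smc1b, the meiotic cohesin subunit, was 1.45 apart (SE 0.26) with a limma adjusted p of 0.0587 and did not pass. Of the 18 genes, 11 were above 0 in both lines and 4 below 0 in both.

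Of the germ granule and piRNA list, which holds proteins that make the small RNAs guarding germ cells against transposons, 15 of 24 genes on the arrays passed the filter and 5 were called higher, none lower, against 3.95% and 1.61% of all genes, with a median of 0.63. Mael, a piRNA pathway protein, stood at -6.33 and -7.86 in mock and -1.30 and -3.63 with Flag-Dppa2, at least 7.40-fold higher, with 0.03 in wild type. Ddx4, the germ cell RNA helicase, stood at -4.68 and -6.69 in mock and -2.56 and -4.05 with Flag-Dppa2, at least 3.66-fold higher, while wild type stood at 1.49. Stk31 was at least 5.07-fold higher, Piwil2, an Argonaute of the piRNA pathway, differed by 1.41 (SE 0.18), and Tdrd12 by 1.32 (SE 0.21). Tdrd1 had its mock array of line 1 below background. It was at least 3.09 apart in line 1 and 2.09 in line 2, and did not pass (limma adjusted p 0.0754). Of the 15 genes, 12 were above 0 in both lines and 3 below 0 in both.

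The third list held other genes of germ cells, 20 of 30 on the arrays passing, with 3 called higher and 1 lower, against 3.95% and 1.61% of all genes, and a median of 0.46. Of the 20 genes, 13 were above 0 in both lines and 3 below 0 in both. Psma8 is one of those called higher. Cyct, the testis form of cytochrome c, stood at -3.01 and -3.80 in mock and 1.06 and 0.76 with Flag-Dppa2, above background throughout, a difference of 4.32 (SE 0.16, limma adjusted p 0.00780) or 19.9-fold. Aard differed by 2.18 (SE 0.29), with its mock arrays at -2.96 and -0.26 far from each other. Dnmt3l, a cofactor of new DNA methylation, was lower, at 6.76 and 6.47 in mock and 6.41 and 6.10 with Flag-Dppa2, a difference of -0.36 (SE 0.05). Of the X-linked Rhox homeobox genes, 5 of 8 on the arrays passed the filter, and Rhox13 and Rhox9 were called higher, against 3.95% of all genes. Rhox9 stood at -3.21 and 1.21 in mock and 0.29 and 2.96 with Flag-Dppa2, so the groups overlapped while the difference was positive in both lines. Of 8 Mage genes that passed, Mageb4 and Mageh1 were called higher, again against 3.95% of all genes.

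The pluripotency genes moved by small amounts, with 1 exception. Of 27 naive and core pluripotency genes, all measured, 1 was called higher and 4 lower, against 3.95% and 1.61% of all genes, with a median difference of -0.13. Pou5f1, the core factor Oct4, stood at 3.57 and 3.68 in mock and 5.37 and 4.84 with Flag-Dppa2, with 2.84 in wild type. That is a difference of 1.48 (SE 0.16, n = 2 lines) or 2.79-fold, limma adjusted p 0.0282. The 4 that fell were Tfcp2l1 by 0.68, Tbx3 by 0.53, Klf4 by 0.48 and Esrrb by 0.45 on the log2 scale. Sox2, which partners with Oct4, stood at 4.09 and 3.86 in mock and 3.72 and 3.98 with Flag-Dppa2, lower in line 1 and higher in line 2, with a limma adjusted p of 0.581.

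Of the formative and primed genes, which ES cells turn on as they leave the naive state, 22 of 24 on the arrays passed, with 4 called higher and 1 lower, against 3.95% and 1.61% of all genes, and a median of 0.28. Fgf5 stood at -3.84 and -4.02 in mock and -1.47 and -2.52 with Flag-Dppa2, a difference of 1.94 (SE 0.27), and wild type stood at -0.29. Lef1 differed by 1.40 (SE 0.22), and Otx2 and Pou3f1, transcription factors of this state, by 1.12 (SE 0.18) and 0.91 (SE 0.08). Lefty1, a Nodal inhibitor, fell by 0.57. Of the two-cell-like list, genes expressed briefly in the early embryo, only 4 of 16 on the arrays were measured. Among these 4, Rgs2 was called higher by 1.46 (SE 0.14), against 3.95% called higher among all genes.

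**Figure D3:**
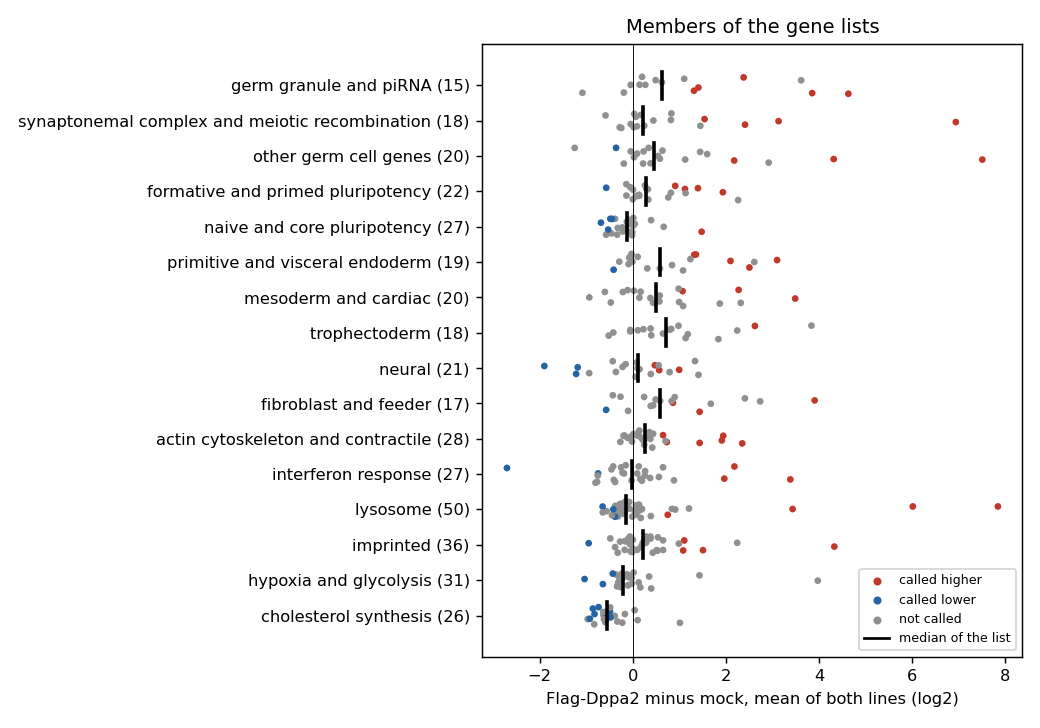
Flag-Dppa2 minus mock difference (x axis, log2, mean of both lines) of each measured gene of 16 lists, with the number measured in brackets, coloured by the limma call, and a bar at the list's median. The germ cell lists reach far to the right with few genes, and most cholesterol synthesis genes lie below 0.

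Primitive and visceral endoderm is the yolk sac lineage set aside early in the embryo, and 19 of 24 genes on its list passed, with 5 called higher and 1 lower, against 3.95% and 1.61% of all genes, and a median of 0.58. Cubn, an endocytic receptor of the visceral endoderm, stood at -4.38 and -5.03 in mock and -1.02 and -2.19 with Flag-Dppa2, 8.58-fold higher (limma adjusted p 0.0148), and its partner Amn differed by 2.10 (SE 0.21). Dab2, an adaptor for endocytosis, differed by 2.51 (SE 0.40), Foxa2, a transcription factor of endoderm, by 1.36 (SE 0.20), and the basement membrane gene Col4a1 by 1.32 (SE 0.14). Apoe fell by 0.41. The endoderm markers summed to -0.02 and -0.58 in mock and 1.22 and 0.74 with Flag-Dppa2, and Afp, Hnf4a and Ttr were below background on all 4 arrays. Of the 6 above background throughout, Amn, Cubn, Foxa2, Gata6 and Sox7 were higher in both lines and Gata4 in line 2 alone. The part of such cells in the result was not tested. In bulk RNA a change in the share of cells of a type and a change of RNA per cell cannot be told apart.

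In the mesoderm and trophectoderm lists few genes were called, while the list medians lay above 0. Of 20 measured mesoderm and cardiac genes, Nkx2-5, Myh6 and Wnt3 were called higher and none lower, against 3.95% and 1.61% of all genes. The median was 0.50, with 12 of the 20 above 0 in both lines and 4 below. Myh6, a heart myosin heavy chain, was above background in 1 mock array and stood at -4.75 and -4.05 in mock and -2.35 and -1.90 with Flag-Dppa2, a difference of 2.27 (SE 0.20), and Wnt3, a signal for mesoderm, differed by 1.07 (SE 0.17). In the trophectoderm list the median was 0.72, with 11 of 18 measured genes above 0 in both lines and 2 below. Of the 18, 1 was called, the Rhox9 gene already described, against 3.95% higher among all genes. A signal at least 2-fold higher in both lines was seen in 4, against 3.79% of all genes. Krt19, a keratin, is one of these and stood at -4.45 and -1.65 in mock and 1.39 and 0.19 with Flag-Dppa2. Its lines differed by 5.84 and 1.84 and it did not pass (limma adjusted p 0.0972).

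Of 21 measured neural genes 3 were called higher and 3 lower, against 3.95% and 1.61% of all genes. Dmbx1, a homeobox gene of the midbrain, stood at 0.83 and 0.34 in mock and at -0.63 and -2.0 with Flag-Dppa2, a difference of -1.90 (SE 0.23, limma adjusted p 0.0322), and wild type stood at -3.38. Zic1, a zinc finger factor of the neural plate, fell by 1.18 (SE 0.19) and stood at -6.57 in wild type. Ncan, a brain proteoglycan, fell by 1.22 (SE 0.08). Mbp, Nes and Nefl were higher by 1.00, 0.57 and 0.47.

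Some contractile genes were called higher. Of 28 measured actin cytoskeleton and contractile genes 6 were called higher and none lower, against 3.95% and 1.61% of all genes, with a median of 0.26. Cnn1, a smooth muscle actin-binding protein, stood at -0.82 and -2.63 in mock and 1.30 and -0.05 with Flag-Dppa2, a difference of 2.35 (SE 0.15), and the Myl9 light chain differed by 1.94 (SE 0.13). Thbs1, Tagln, Tpm1 and Tpm2 differed by 1.91, 1.44, 0.73 and 0.65. On the fibroblast and feeder list, 17 of 27 passed, 3 were called higher (Mmp2, Tagln, Col5a1) and 1 lower (Fstl1), against 3.95% and 1.61% of all genes. Mmp2, a collagen-cutting protease, stood at -4.37 and -4.87 in mock and -0.68 and -0.75 with Flag-Dppa2, 15.0-fold higher (limma adjusted p 0.0102). The 15 fibroblast markers summed to 4.25 and 3.78 in mock and 5.23 and 4.41 with Flag-Dppa2, a sum mostly of Acta2 and Tagln. Of the 7 above background on all 4 arrays, Acta2, Col1a2, Mmp2 and Tagln were higher in both lines and Pdgfrb and Thy1 lower in both. Col1a1 stood at -1.69 and -3.54 in mock and -1.56 and -3.87 with Flag-Dppa2, and Lum, Prrx1 and Twist2 were below background on all 4 arrays. Their part in the contractile genes was not tested.

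Lysosomal genes split. Of 50 measured genes 4 rose and 3 fell, against 3.95% and 1.61% of all genes, and the median was -0.16. Aga and Ctsh had the wide gaps given above, Lipa, the lysosomal lipase, was at least 4.42-fold higher, and Psap differed by 0.75 (SE 0.12), while Arsa fell by 0.65 and Ctsb by 0.38. Among 27 measured interferon response genes 3 rose and 2 fell, against 3.95% and 1.61% of all genes. Psmb8, a subunit of the immune proteasome, stood at -5.36 and -6.82 in mock and -1.45 and -3.96 with Flag-Dppa2, at least 6.26-fold higher. Tap2, a peptide transporter for antigen presentation, differed by 2.18 (SE 0.33). Gbp2, a guanylate-binding protein, was called higher (limma adjusted p 0.0369) with its mock array of line 2 below background. It stood at -2.59 and -6.39 in mock and -0.26 and -4.78 with Flag-Dppa2, 2.33 apart in line 1 and at least 0.89 in line 2. The groups overlapped, and the comparison with the Flag-Dppa2 array of line 1 left out, and lines unpaired, gave -0.29.

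Among imprinted genes, which are expressed from 1 parental copy, 36 of 44 on the arrays passed and 4 rose and 1 fell, against 3.95% and 1.61% of all genes. Beside Gatm, the growth repressor Grb10 differed by 1.11 (SE 0.13), Peg3 by 1.08 (SE 0.17) and Ndn by 1.51 (SE 0.20), while Slc22a18 fell by 0.95. Of 27 measured p53 targets 1 was called higher and 1 lower, against 3.95% and 1.61% of all genes. Cdkn1a was higher by 1.02 (SE 0.11). Ddit4, a stress-induced inhibitor of mTOR, fell by 1.21 (SE 0.06), at 5.52 and 4.62 in mock and 4.33 and 3.39 with Flag-Dppa2. Of the DNA methylation list, 25 measured genes held 3 that fell, against 1.61% of all genes: Dnmt3l, Zfp57 by 0.51 and Apobec1 by 0.84. Of 30 measured proliferation genes 1 was called (3.33%), the cyclin Ccnd2, higher by 1.64 (SE 0.20), against 3.95% of all genes. Of 35 polycomb and trithorax genes 1 was called (2.86%), Pcgf5, higher by 0.96 (SE 0.09), against the same 3.95%. Of 14 lung development genes Foxa2 and Id2 were called higher, again against 3.95%, Id2 by 0.88 (SE 0.11). Of 25 immediate-early and heat shock genes 1 was called, against 1.61% lower among all genes: Spry4, which damps FGF signalling, fell by 1.05. In limma none of 12 measured Hox genes or 9 measured clustered protocadherins was called, with 4 and 5 at an unadjusted p below 0.05, and none of 7 Y-linked genes on the arrays passed the filter.

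Among the 56 genes at least 2-fold lower in both lines, 15 were ranked by the smaller within-line difference, and 8 were called (adjusted p 0.0136 to 0.0451). Where neither Flag-Dppa2 array was above background, the fold is a lower bound. Helz2, a helicase known from the interferon response, was measured on all arrays, at -1.17 and -1.25 in mock and -4.06 and -3.77 with Flag-Dppa2, a difference of -2.70 (SE 0.18, limma adjusted p 0.0136) or 6.51-fold lower, and wild type stood at -3.67. A second Helz2 probe was above background on both mock arrays and on neither Flag-Dppa2 array. Kcnu1, a sperm potassium channel, stood at -1.73 and -3.65 in mock and -6.70 and -6.79 with Flag-Dppa2, at least 5.32-fold lower. Olfr164, an olfactory receptor, was at least 3.09-fold lower, Tnxb, the matrix protein tenascin-X, at least 2.99-fold, Mgat5b, a sugar transferase, at least 2.95-fold and Gdpd4 at least 2.47-fold. Chrna4 and Aox3 were each above background in 1 Flag-Dppa2 array, that of line 1. Chrna4 fell by 1.81 in line 1 and at least 1.16 in line 2, and Aox3 by 2.33 and at least 1.10. Kcna4, Crxos, Kiss1, L1cam, Dlx4 and Lrguk were among those not called, with limma adjusted p-values from 0.0667 to 0.100.

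**Figure D4:**
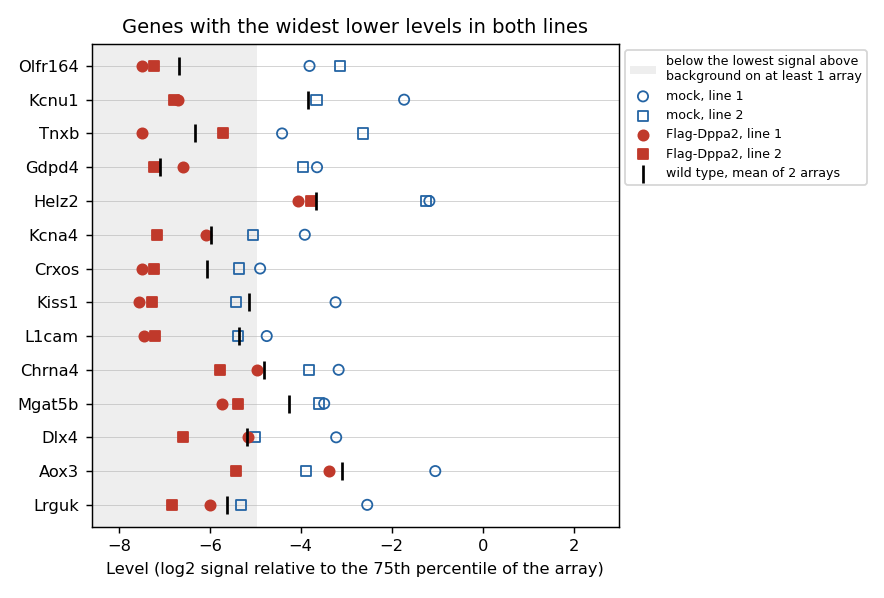
Level on each array (x axis, log2 relative to the array's 75th percentile) of 14 of the 15 genes with the widest lower level with Flag-Dppa2 in both lines, with circles for line 1, squares for line 2, and a bar for the wild-type mean. The mock symbols lie right of the Flag-Dppa2 symbols of the same line in all 14, and most Flag-Dppa2 symbols lie in the grey zone below the lowest signal above background.

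Many cholesterol synthesis genes were lower with Flag-Dppa2, each by less than 2-fold on average. All 26 genes on the arrays were measured, and 10 fell and none rose, against 1.61% lower among all genes; 23 of the 26 were below 0 in both lines and the median was -0.56. The 10 fell by 0.48 to 0.92 on the log2 scale. Hmgcs1, which makes the pathway's first committed precursor, stood at 5.33 and 5.51 in mock and 4.54 and 4.65 with Flag-Dppa2, a difference of -0.82 (SE 0.06, limma adjusted p 0.0139). Msmo1, Nsdhl and Dhcr7, enzymes of the later steps, fell by 0.86, 0.92 and 0.74, and Fdps, Sqle, Pmvk, Idi1 and Mvd by 0.60, 0.58, 0.51, 0.49 and 0.48. Mvk, Lss and Cyp51 had differences of -0.63, -0.83 and -0.97 without passing. The list's median stayed between -0.59 and -0.55 under quantile and median scaling, normexp background correction and the authors' values.

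**Figure D5:**
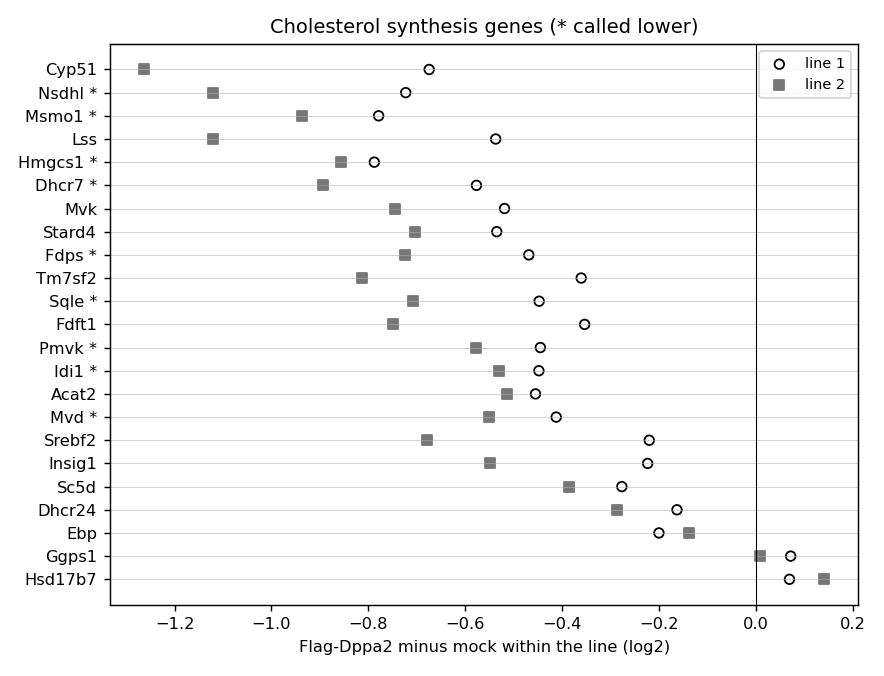
Within-line Flag-Dppa2 minus mock difference (x axis, log2) of 23 of the 26 measured cholesterol synthesis genes, with an open circle for line 1 and a square for line 2, and an asterisk for genes called lower. For 21 of them both symbols lie below 0, and Hsd17b7 and Ggps1 lie above it.

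Other list members had signals at least 2-fold apart in both lines without passing the test, with limma adjusted p-values from 0.0510 to 0.143. Prss50, a protease of the testis, and Gpat2, a germ cell gene, were above background throughout and differed by 1.60 (SE 0.27) and 1.45 (SE 0.25). Gata6, a regulator of primitive endoderm, differed by 2.61 (SE 0.53), Rhox6, a homeobox gene of the placenta, by 2.24 (SE 0.45), Fas by 1.25 (SE 0.23) and Rian by 2.24 (SE 0.42), also above background on all 4 arrays. For others neither mock array was above background, so only bounds can be given. The formative factor Zic2 was at least 3.23-fold higher, Tspan8 at least 2.49-fold, the mesoderm factor Mesp2 at least 2.26-fold, and Loxl1 and Fbn1, matrix genes of fibroblasts, at least 2.24-fold and 2.05-fold. Taf7l, a germ cell gene, and Hoxd4 were at least 1.78-fold and 1.68-fold higher, bounds below 2-fold. Hand1, a mesoderm factor, and Ankrd37 were above background in 1 mock array. Hand1 was at least 0.85 apart in line 1 and 1.00 in line 2 on the log2 scale, and Ankrd37 1.58 in line 1 and at least 4.30 in line 2. Pcdhb6, a protocadherin, was lower with neither Flag-Dppa2 array above background, and no size is given for it.

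Among 31 measured hypoxia and glycolysis genes, 3 fell and none rose, against 1.61% and 3.95% of all genes, with a median of -0.20: the aldolase Aldoc by 1.04 (SE 0.10), hexokinase Hk1 by 0.64 (SE 0.08) and enolase Eno1 by 0.43 (SE 0.07). By chromosome, 27 of 433 measured X-linked genes were called higher, 6.24%, against 2.74% to 4.95% on the autosomes, given as a description.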

How the data were processed

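Total RNA (Trizol) was labelled with Cy3 and hybridised to Agilent Whole Mouse Genome 4 x 44K arrays, per the labels. The authors deposited the spot intensities of each array as Agilent Feature Extraction 10.7.3.1 (protocol GE1_107_Sep09) wrote them, background-subtracted and on a linear scale, per the file headers. The authors' deposited log2 value table (GeneSpring GX 11, per the labels) has the same median, 5.84, in every column and correlates above 0.999 with the scanner values, so its scale is log2 and its centring is not stated; it was used as an alternative. The files' probe annotation names build mm9, per the file headers.

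Here, spots of a probe were averaged and scaled on log2 to the array's 75th percentile, control spots and 115 probes with flags were left out, and genes were represented by the probe with the highest mean. Probes were named through their accessions in the RefSeq gene table. Of 41059 probes, 27143 carried a symbol (18516 symbols), and features above background on at least 2 of the 4 knockout arrays were kept: 18225, of which 12977 were named genes, the others being unnamed probes that stay in the multiple-test adjustment. limma 3.58.1 (R 4.3.3) fitted the 4 arrays with the line as a fixed block and an intensity trend (two-sided, Benjamini-Hochberg, threshold 0.05). The number of arrays limits the precision. Same-numbered mock and Flag-Dppa2 arrays come from the same knockout line, and their deviations from the group means correlated at 0.63.

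Genes named first were Dppa2, Dppa4, Nkx2-5 and Syce1, then the 20 higher and 15 lower with the widest smaller within-line difference, up to 6 members of each list at least 2-fold apart in both lines, and 5 opposite genes. A few genes that this rule or a list holds are not reported here by name. Called list members below 2-fold were named after their values were seen. The members and lists were chosen with earlier results of these data known. Promoter sequences are from RefSeq (build GRCm38.p6), with no coordinates from the arrays. Alternatives are scalings, filters, probe averaging, limma settings, each replicate left out, and 2 added after seeing the data. The alternative background correction (normexp, offset 50) used median spot and background signals in place of mean signals. The script's fits were tested on simulated data of 18225 features. Of 100 features given a true log2 difference of 1, 53 were recovered. Of 100 given a difference of 2, 83 were recovered. Both sizes were in the same simulated data, and 15 calls were false in all. The calls reported here can therefore include false ones and miss true ones.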

Additional observations from a re-analysis of the deposited data

Results flagged for a closer look

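In 5 genes the signals differed in opposite directions in the lines; the difference between lines was not tested, since each line has 1 array per vector. The signal with Flag-Dppa2 minus that in mock was -5.49 in line 1 and 6.49 in line 2 for Defb20, -3.55 and 5.25 for Olfr659, -5.24 and 3.50 for Vmn1r234, -3.24 and 4.31 for Ifi204, and -5.46 and 3.08 for Kcnc1, all on the log2 scale. For each gene other than Kcnc1, 1 mock array and 1 Flag-Dppa2 array were above background, and Kcnc1 was above background on both mock arrays and 1 Flag-Dppa2 array. A difference against an array below background has no measured size. With such signals raised to the lowest signal above background, the differences in lines 1 and 2 were -3.22 and 4.23 for Defb20, -1.29 and 3.01 for Olfr659, -2.97 and 1.24 for Vmn1r234, -0.95 and 2.70 for Ifi204, and -3.34 and 3.08 for Kcnc1, which are bounds wherever a signal was raised. None of the 5 was called in limma.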

How the results depend on the processing

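With the array medians in place of the percentile, 422 genes were called higher and 189 lower, and with averaged probes 587 and 259. Quantile normalization gave 349 and 129, the authors' values 335 and 121, normexp 598 and 280, the filter on all 4 arrays 415 and 220, and no filter 1972 and 1333. limma without the trend called 0 and 0 (Dppa2 2.20, adjusted p 0.0932), and the filter on all 4 arrays without the trend, added after seeing the data, also called 0 and 0, with 1474 higher and 1189 lower at an unadjusted p below 0.05. With no replicate block 0 and 0 were called (Dppa2 2.20, adjusted p 0.196), all 6 arrays without block or trend called 116 and 4, and all 6 with the knockout line as block 1572 and 1124. Leaving out an array gives a fit with no pairing: limma called 0 and 0 in each (480 to 720 higher and 173 to 253 lower at an unadjusted p below 0.05), and Dppa2 ran from 2.00 to 2.40.

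The count of genes 2-fold apart in both lines was 492 higher and 56 lower. It was 179 and 8 with normexp, 245 and 22 with the filter on all 4 arrays, 889 and 249 at 1.5-fold, 181 and 7 at 4-fold, 423 and 31 with dim signals raised to the floor (added after seeing the data), and 806 to 809 and 183 to 195 with 1 line alone. Of 64 other named called genes, 26 were also called in the 6-array fit without block or trend. Under the scaling, background and probe alternatives run on all of them, 53 to 62 were.

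The causes of these changes were not tested. Kcnc1 changed sign with normexp (0.14). With single arrays left out and lines unpaired, values of both signs were seen for Vmn1r234 (-3.70 to 1.96), Defb20 (-2.53 to 3.53), Olfr659 (-1.57 to 3.26), Ifi204 (-1.74 to 2.81), Kcnc1 (-4.42 to 2.04), Gbp2 (-0.29 to 4.23) and Sox2 (-0.26 to 0.0045). The slide could not be used as a block, since each slide holds 1 vector. Signal over background limits the folds of genes below it to bounds.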
